A study of Mus musculus with 6 samples.

Results

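Trp53, which encodes the transcription factor p53, and 8 of its established target genes were followed in mouse regulatory T (Treg) cells, a CD4 lineage that holds immune responses in check. The 9 genes were picked by symbol, and each had 1 row among the 24493 gene symbols of the table. The cells carried Ifnar1-SA or were wild type (WT), with 3 libraries per genotype, and all cells had been naive splenic CD4 cells before they were driven towards the Treg state in culture. The product of Ifnar1 is 1 of the subunits that sense type I interferon, and in published work SA names a knock-in whose receptor has alanine in place of a serine that marks it for degradation. The labels give no age, sex, strain or added stimulus, nor whether replicate libraries stem from different mice or cultures. P-values therefore measure the spread between these libraries, which may be technical. Expression was given in TPM, the share of the transcripts of a library that belongs to a gene, corrected for transcript length.

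As background, p53 is held low by the ubiquitin ligase Mdm2, which marks it for degradation, and is stabilised when DNA is damaged or growth is stressed, so its activity is set more by protein stability than by the amount of its mRNA. Active p53 binds paired copies of a short DNA motif and switches on genes that stop the cell cycle, repair DNA, limit growth signalling or lead to cell death. Mdm2 is itself a target, which closes a feedback loop. Activated T cells divide fast and express p53, and type I interferon has been reported to raise transcription of the p53 gene in mouse fibroblasts.

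Promoter sequences were searched for the DNA element that p53 binds. RefSeq promoter windows of build GRCm38.p6, from 250 bases before to 50 bases after a start, were found for 7 of the 9 genes, and Cdkn1a had an upstream and a downstream start. The search used the p53 decamer consensus, a motif of 10 bases that reads the same on both strands. Of the 8 windows, 4 held at least 1 exact match, against 8.36% of the 32851 windows in the table. A pair of decamers side by side with at most 1 base off the consensus in all was present in the windows of Cdkn1a and Ccng1, against 29 of the 32851 windows, or 0.0883%. The genes were chosen as p53 targets, so these counts describe them and test nothing, and a match is not proof of binding. In the sequences below, which leave out annotated exons, capitals mark exact decamer matches and, in Cdkn1a and Ccng1, the pair of 20 bases. Cdkn1a, Trp53 and Mdm2 are shown by the rule for sequences, and Ccng1 was added because it held a pair.
Cdkn1a, upstream start, chr17:29090729-29090975, plus strand: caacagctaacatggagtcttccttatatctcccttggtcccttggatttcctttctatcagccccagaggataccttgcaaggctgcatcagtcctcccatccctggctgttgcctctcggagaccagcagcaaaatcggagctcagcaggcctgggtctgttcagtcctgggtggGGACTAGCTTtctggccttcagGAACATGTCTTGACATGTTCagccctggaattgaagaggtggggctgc
Ccng1, chr11:40755312-40755536, minus strand: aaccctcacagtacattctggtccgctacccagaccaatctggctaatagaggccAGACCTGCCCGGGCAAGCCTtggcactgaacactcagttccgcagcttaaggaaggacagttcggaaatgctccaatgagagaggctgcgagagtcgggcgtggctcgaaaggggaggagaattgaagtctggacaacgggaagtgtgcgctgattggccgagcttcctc
Mdm2, chr10:117710759-117711008, minus strand: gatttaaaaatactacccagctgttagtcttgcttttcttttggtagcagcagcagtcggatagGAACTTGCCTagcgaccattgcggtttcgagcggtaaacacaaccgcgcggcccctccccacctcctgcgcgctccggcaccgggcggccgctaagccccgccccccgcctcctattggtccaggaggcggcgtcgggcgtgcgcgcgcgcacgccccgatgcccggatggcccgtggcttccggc
Trp53, chr11:69580256-69580358, plus strand: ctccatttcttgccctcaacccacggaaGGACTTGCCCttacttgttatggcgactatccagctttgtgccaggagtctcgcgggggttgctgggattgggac
The pair at Cdkn1a lay at chr17:29090928-29090947, which is 51 bases before the upstream start and 2841 bases before the downstream one. The first of its decamers matched in full and the second, tgacatgttc, was 1 base off. The pair at Ccng1 lay at chr11:40755462-40755481, with 1 base off in the first decamer. The windows of Phlda3, Sesn2, Eda2r and the downstream start of Cdkn1a had no exact match, which says only that these letters are not in these windows. The response elements known for Mdm2 lie in its first intron and outside the window searched.

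No member passed the test between the genotypes. Of the 8 members with a mean of at least 1 TPM, 0 passed an adjusted p of 0.05 in limma, against 7 of the 12141 genes tested, or 0.0577%. At an unadjusted p under 0.05 the members also numbered 0, against 3.12% of all genes tested (1.44% higher and 1.68% lower in Ifnar1-SA). Eda2r, the ninth, was below 1 TPM throughout and was tested alone. All members but Trp53 had a lower mean log2 value in Ifnar1-SA, as did 62.9% of all genes tested, and the median log2 fold change over the 8 was −0.16, against −0.06 over all genes tested. In 3 of the 9 members, Cdkn1a, Mdm2 and Eda2r, every Ifnar1-SA library was below every WT library, as were 4.13% of the 23897 symbols above 0 in any library and 3.8% of the genes tested. In 0 of the 9 was every Ifnar1-SA library above every WT library, as were 1.7% of those symbols and 1.97% of the genes tested.

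**Figure D1:**
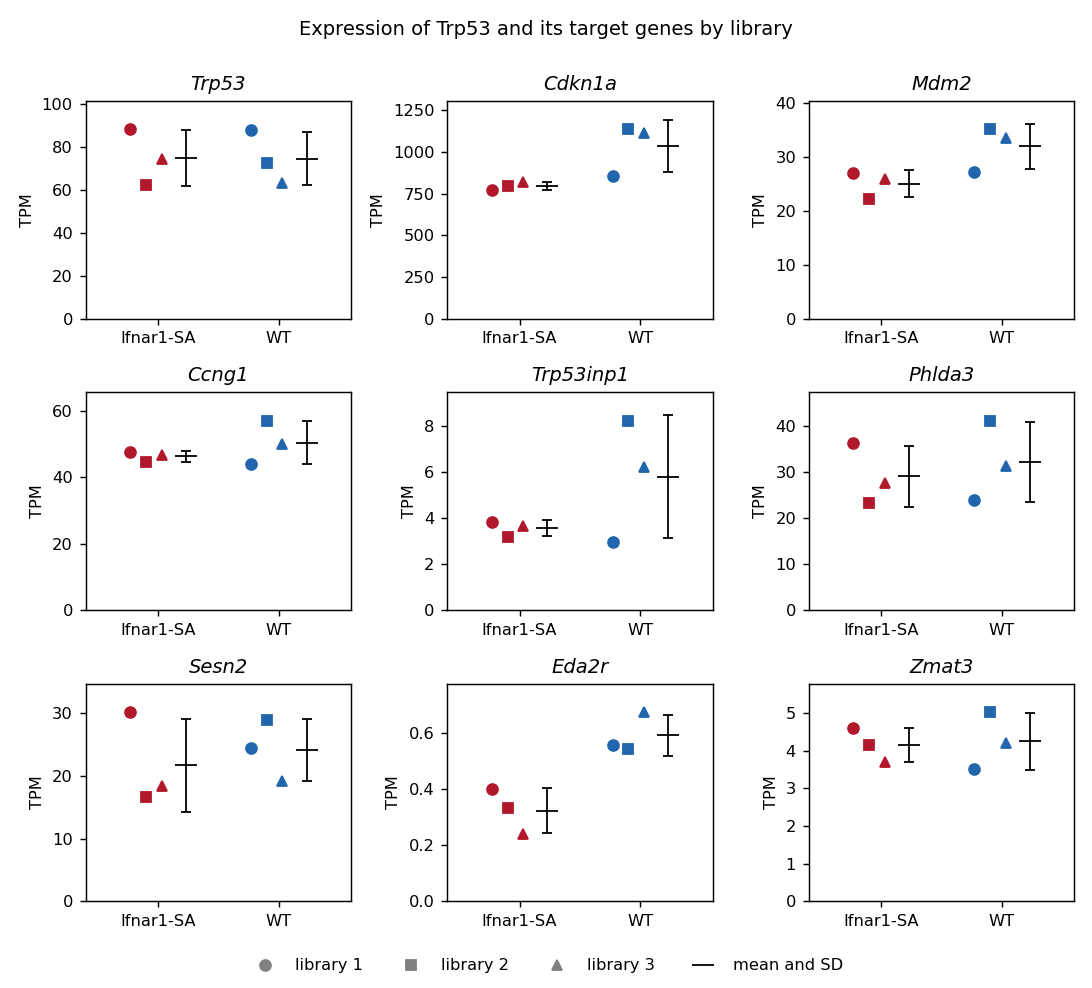
TPM of each member in the 3 Ifnar1-SA (red) and 3 WT (blue) libraries, with the mean and SD as a black bar and whiskers and each axis starting at 0. Cdkn1a, Mdm2 and Eda2r have all red points below all blue points, and WT 1 is the lowest blue point in 6 of the 9 panels.

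**Figure D2:**
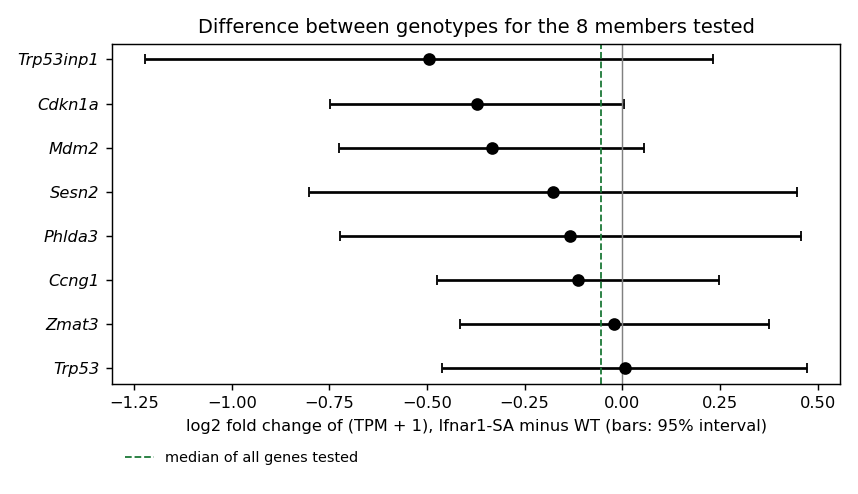
Log2 fold change of TPM + 1, Ifnar1-SA minus WT, with 95% intervals for the 8 members tested. Every interval includes 0, and the dashed line is the median of all genes tested, −0.06.

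For the transcript of p53 itself, the genotype means differed by far less than the spread between libraries. Trp53 lies on the plus strand of chromosome 11 (GRCm38, 69580359 to 69591873) and codes for protein, as do the other members. It had 88.4, 62.3 and 74.4 TPM in Ifnar1-SA 1, 2 and 3, and 88.1, 72.5 and 63.4 TPM in WT 1, 2 and 3. The ranges overlapped almost fully, with the highest libraries of the genotypes within 1 TPM of each other. The mean was 75.0 ± 13.1 TPM in Ifnar1-SA and 74.6 ± 12.5 TPM in WT (SD, n = 3 each). The log2 fold change was 0.01 with a 95% interval from −0.46 to 0.47 (limma, adjusted p = 0.9997), and it was −0.10 without WT 3. A processed pseudogene of Trp53 is annotated in GENCODE, and how reads were split between such copies is not given in the sources used here.

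Cdkn1a, which encodes p21, the inhibitor of cyclin-dependent kinases that carries out the cell cycle arrest by p53, was the most abundant member by far. From its locus on chromosome 17 (29090976 to 29100727, plus strand) it gave 769, 794 and 819 TPM in Ifnar1-SA, against 856, 1137 and 1113 TPM in WT. The Ifnar1-SA libraries lay close together below all WT libraries, and WT 1 was the nearest to them. The mean was 794 ± 24.9 TPM in Ifnar1-SA and 1035 ± 156 TPM in WT (SD, n = 3 each), a ratio of 0.767. The log2 fold change of −0.37 (95% interval −0.75 to 0.0044) did not pass (limma, adjusted p = 0.9997). It was −0.50 without WT 1, where the limma adjusted p of 0.512 was the lowest of its 14 alternatives, which reached 1. By rank Cdkn1a stood between place 188 and 195 of all symbols in the Ifnar1-SA libraries, against places 122 to 185 in the WT libraries. After median-of-ratios scaling, an alternative way to put libraries on 1 scale, the groups overlapped, at 667, 855 and 939 in Ifnar1-SA against 935, 884 and 1127 in WT. Trp53cor1, a long noncoding RNA (lincRNA-p21) whose gene lies upstream of Cdkn1a, was at 3.49, 3.92 and 3.34 TPM in Ifnar1-SA and 3.36, 4.30 and 4.59 TPM in WT, which overlapped (limma, adjusted p = 0.9997).

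Mdm2, the ligase that removes p53, had the same order of groups by a small margin. It lies on chromosome 10 (117688875 to 117710758, minus strand) and had 27.07, 22.2 and 25.9 TPM in Ifnar1-SA and 27.15, 35.1 and 33.5 TPM in WT. The highest Ifnar1-SA library and the lowest WT library were nearly equal, so the lack of overlap rests on less than 0.1 TPM. The log2 fold change was −0.33 (95% interval −0.72 to 0.05, limma adjusted p = 0.9997) and −0.44 without WT 1, where the limma adjusted p of 0.692 was the lowest of its alternatives. Scaled by median of ratios, Mdm2 overlapped as well, at 23.5, 23.9 and 29.7 in Ifnar1-SA against 29.6, 27.3 and 33.9 in WT. By rank among all symbols it also overlapped, at places 3024 to 3405 in Ifnar1-SA and 2549 to 3181 in WT.

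Genes that act in cell cycle control and growth beside p21 overlapped between the genotypes. Ccng1, which encodes cyclin G1, a partner of protein phosphatase 2A that acts on Mdm2 (chromosome 11, 40748552 to 40755311), was at 47.6, 44.6 and 46.9 TPM in Ifnar1-SA and 44.1, 57.1 and 50.2 TPM in WT. It was the member with the narrowest relative spread, with 1.30 times as much in its highest as in its lowest library, and its log2 fold change was −0.11 (95% interval −0.47 to 0.25), with −0.20 without WT 1 and −0.02 without WT 2. Sesn2, which encodes sestrin 2, a sensor of leucine and stress that restrains the growth kinase mTORC1 (chromosome 4, 132492032 to 132510501), was at 30.2, 16.6 and 18.3 TPM in Ifnar1-SA and 24.4, 29.0 and 19.1 TPM in WT. Its highest and its lowest library were both Ifnar1-SA. Its log2 fold change was −0.18 (95% interval −0.80 to 0.45), with −0.43 without Ifnar1-SA 1 and −0.02 without Ifnar1-SA 2. As background, Sesn2 is also induced by the stress factor ATF4, and in the annotation it overlaps another gene, Gm12981, on the same strand. Phlda3, which encodes a pleckstrin homology protein that competes with the kinase Akt for membrane lipids (chromosome 1, 135766119 to 135769136), was at 36.4, 23.3 and 27.6 TPM in Ifnar1-SA and 24.0, 41.2 and 31.4 TPM in WT. The libraries of both genotypes were interleaved, and the log2 fold change was −0.13 (95% interval −0.72 to 0.46), or 0.0557 without WT 2. Adjusted p was 0.9997 for Ccng1, Sesn2 and Phlda3 in limma.

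Among the targets linked to cell death and RNA control, Trp53inp1 had the widest spread on the log2(TPM + 1) scale and Eda2r the lowest level. Trp53inp1, which encodes a nuclear protein that promotes p53-dependent death and autophagy (chromosome 4, 11156431 to 11174379), was at 3.83, 3.19 and 3.67 TPM in Ifnar1-SA and at 2.96, 8.25 and 6.23 TPM in WT. WT 2 and WT 3 were above all Ifnar1-SA libraries and WT 1 was below them. The log2 fold change was −0.49 (95% interval −1.22 to 0.23, limma adjusted p = 0.9997). It was −0.84 without WT 1 and −0.23 without WT 2, where limma gave an adjusted p of 0.381 and 1. Zmat3, which encodes a zinc finger protein that binds RNA and alters splicing (chromosome 3, 32334792 to 32366014), was at 4.61, 4.15 and 3.70 TPM in Ifnar1-SA and 3.51, 5.03 and 4.21 TPM in WT, with a log2 fold change of −0.02 (95% interval −0.42 to 0.37, limma adjusted p = 0.9997). Its sign turned under several settings, among them 0.0298 after median-of-ratios scaling and 0.0840 without WT 2.

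Eda2r, which encodes XEDAR, a receptor of the tumour necrosis factor family for the A2 form of ectodysplasin (chromosome X, 97333840 to 97377216), was at 0.400, 0.335 and 0.239 TPM in Ifnar1-SA, against 0.558, 0.545 and 0.677 TPM in WT. No library of the one genotype reached the range of the other in TPM, and this also held after median-of-ratios scaling. By rank among all symbols the groups overlapped, at places 14651 to 15308 in Ifnar1-SA and 12634 to 15156 in WT. The mean was 0.325 ± 0.0810 TPM in Ifnar1-SA and 0.593 ± 0.0727 TPM in WT (SD, n = 3 each). An exact permutation test (two-sided) gave p = 0.1, the smallest that 3 against 3 libraries allow. Fitted with limma without a filter on low values, its log2 fold change was −0.27 on the TPM + 1 scale (limma, adjusted p = 0.9999). The number of fragments behind such low levels is not known from TPM. Transcripts of its ligand gene, Eda, were at 0.0798, 0.0288 and 0.0260 TPM in Ifnar1-SA and 0.0172, 0.153 and 0.0319 TPM in WT.

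Levels of the members spanned a wide range. Averaged over the 6 libraries, the order in TPM was Cdkn1a (915 TPM), Trp53 (74.8 TPM), Ccng1 (48.4 TPM), Phlda3 (30.6 TPM), Mdm2 (28.5 TPM), Sesn2 (22.9 TPM), Trp53inp1 (4.69 TPM), Zmat3 (4.202 TPM) and Eda2r (0.459 TPM). The ranges of Phlda3 and Mdm2, of Mdm2 and Sesn2, and of Trp53inp1 and Zmat3 overlapped, and their order was not the same in every library. Within a library, Phlda3 was above Mdm2 in 4 of the 6 libraries and Mdm2 above Sesn2 in 5 of the 6. Zmat3 was above Trp53inp1 in all Ifnar1-SA libraries and in WT 1. Within a library, which needs no scaling between libraries, the ratio of Cdkn1a to Trp53 was 8.70, 12.7 and 11.0 in Ifnar1-SA and 9.72, 15.7 and 17.6 in WT. The ratio of Mdm2 to Trp53 was 0.306, 0.357 and 0.348 in Ifnar1-SA and 0.308, 0.485 and 0.529 in WT. Both ratios overlapped through WT 1, and of the 8 targets only Eda2r, below 1 TPM throughout, had a ratio to Trp53 without overlap. The share of all genes without overlap in such a ratio was not computed, so this count has no background beside it.

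Several members varied together by library within a genotype. WT 2 held the highest value of 6 of the 9 members, as it did for 37.0% of all genes tested, and the median TPM of all symbols was 1.21 there, against 0.668 to 0.914 in the other libraries. The lowest value was in Ifnar1-SA 2 for 4 members and in WT 1 for 3, as it was for 21.3% and 13.4% of all genes tested. Cdkn1a, Mdm2, Ccng1, Trp53inp1, Phlda3 and Zmat3 were all lower in WT 1 than in WT 2 and WT 3, while Trp53 was highest of the WT libraries there. The median TPM of all symbols was also lowest in WT 1, at 0.668, against 1.21 in WT 2 and 0.852 in WT 3. What share of all genes had this order was not computed, so it is not shown to be particular to the members. Without WT 1, a choice made after seeing the data, 5 members (Cdkn1a, Mdm2, Ccng1, Trp53inp1 and Eda2r) had every Ifnar1-SA library below every WT library, as did 19.5% of all symbols. Beside this, the summed level of 8 CD8 T and NK cell markers was 1678, 2497 and 2355 TPM in Ifnar1-SA and 2686, 916 and 1348 TPM in WT, with WT 1 above all Ifnar1-SA libraries and WT 2 and WT 3 below them. That sum was almost wholly Nkg7, a granule gene, while Ncr1, Klrb1c, Klrk1, Klrd1 and Eomes were below 1 TPM in every library. Cd8b1 was at 11.8, 9.07 and 15.4 TPM in Ifnar1-SA and 10.2, 13.8 and 15.4 TPM in WT. Cd8a was at 3.19, 1.92 and 1.93 TPM in Ifnar1-SA and 1.55, 4.26 and 2.28 TPM in WT. For both, WT 1 was the lowest WT library, so the order of the sum was that of Nkg7. The part of these library differences in the values of the members was not tested.

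**Figure D3:**
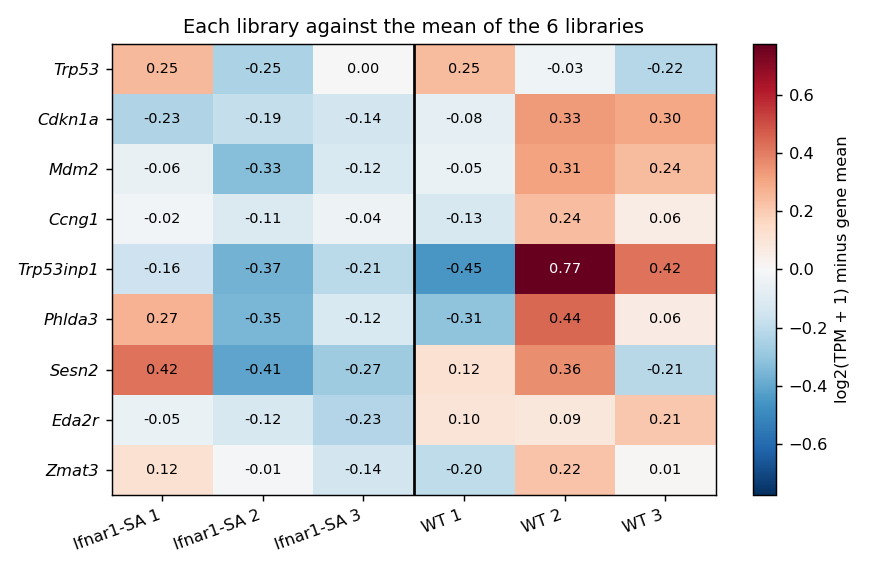
Log2(TPM + 1) of each member in each library minus the mean of that gene over the 6 libraries, with Ifnar1-SA left of the black line and WT right of it. WT 2 is above the mean for 8 of the 9 members, and the values of WT 1 differ in sign from those of WT 2 for Trp53, Cdkn1a, Mdm2, Ccng1, Trp53inp1, Phlda3 and Zmat3.

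The genes with profiles nearest to that of Cdkn1a over the 6 libraries included Bbc3, which is on the list of further p53 targets. Among 11173 genes compared, the 5 with the smallest root-mean-square difference of mean-centred log2(TPM + 1) were Foxf2 (0.0437), Arfip1 (0.0475), Cwc25 (0.0510), Bbc3 (0.0587) and Atxn1 (0.0598). Bbc3, which encodes the cell death inducer PUMA, was at 5.20, 5.94 and 5.84 TPM in Ifnar1-SA, against 6.31, 7.93 and 7.74 TPM in WT. Its groups did not overlap, and its log2 fold change of −0.32 did not pass (95% interval −0.67 to 0.03, limma, adjusted p = 0.9997). Bbc3 was named here for its likeness to Cdkn1a, so a similar separation follows from that choice and is no separate support. Foxf2, Arfip1, Cwc25 and Atxn1 stood on no p53 list. For Trp53 the 5 nearest genes were Msl3l2 (0.0301), Pinx1 (0.0345), Mns1 (0.0377), Ttpal (0.0403) and Dnajb11 (0.0406), and 0 of these stood on a p53 list. With 6 libraries such likeness is a description only.

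The wider set of p53 targets was mixed, with a median near that of all genes tested. Of 54 further targets, 43 had a mean of at least 1 TPM, 0 passed in limma in either direction, with the mean log2 value of 15 above and of 28 below WT. Their median log2 fold change was −0.08, against −0.06 over all genes tested, and without WT 2 it was 0.01, against 0.0035. In the fit to all 6 libraries, at an unadjusted p under 0.05 there were 1 higher and 1 lower gene. The higher gene was Lif, which encodes leukaemia inhibitory factor, a cytokine that T cells also make on activation. Lif was at 67.1, 50.9 and 52.6 TPM in Ifnar1-SA, against 32.8, 40.1 and 25.5 TPM in WT, without overlap (log2 fold change 0.79, 95% interval 0.29 to 1.28, limma adjusted p = 0.9997). The lower gene was Fas, which encodes a death receptor, at 16.9, 13.9 and 16.0 TPM in Ifnar1-SA and 16.7, 34.6 and 32.0 TPM in WT (log2 fold change −0.73, 95% interval −1.39 to −0.07, limma adjusted p = 0.9997). For Fas, WT 1 lay within the range of the Ifnar1-SA libraries, and WT 2 and WT 3 lay above it.

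Further targets of the damage and death branches were picked after their values were seen. Bax, a pore-forming death gene, was at 410, 355 and 377 TPM in Ifnar1-SA and 353, 409 and 429 TPM in WT, and Pmaip1, which encodes NOXA, was at 5.30, 8.83 and 11.4 TPM in Ifnar1-SA and 10.9, 7.23 and 11.0 TPM in WT. Gadd45a, a DNA damage gene, was at 17.5, 20.96 and 12.2 TPM in Ifnar1-SA and 20.2, 43.1 and 23.4 TPM in WT. Plk2, a polo-like kinase gene, was at 31.3, 14.9 and 17.6 TPM in Ifnar1-SA and 29.5, 49.0 and 28.2 TPM in WT. All of these overlapped between the genotypes. Gdf15, a stress cytokine gene, did not overlap, at 0.257, 0.148 and 0.333 TPM in Ifnar1-SA and 0.465, 0.551 and 0.500 TPM in WT, and was below 1 TPM throughout. Other targets picked in the same way had higher means in Ifnar1-SA. Trp53i11, a p53-inducible gene, had 41.9, 27.6 and 31.2 TPM in Ifnar1-SA and 25.9, 25.6 and 24.8 TPM in WT, without overlap. Rps27l, which encodes a ribosomal protein relative, had 234, 394 and 320 TPM in Ifnar1-SA and 381, 181 and 253 TPM in WT. Aen, an exonuclease gene, had 28.0, 20.04 and 20.4 TPM in Ifnar1-SA and 23.4, 20.3 and 14.9 TPM in WT. Pcna, the sliding clamp of DNA replication and repair, had 227, 193 and 179 TPM in Ifnar1-SA and 244, 158 and 158 TPM in WT, and it overlapped between the genotypes like Rps27l and Aen. Of the 54 targets, 2 (Bbc3 and Gdf15) had every Ifnar1-SA library below every WT library and 2 (Lif and Trp53i11) had every one above. Of the 23897 symbols above 0 in any library, 4.13% were below and 1.7% above in this way.

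**Figure D4:**
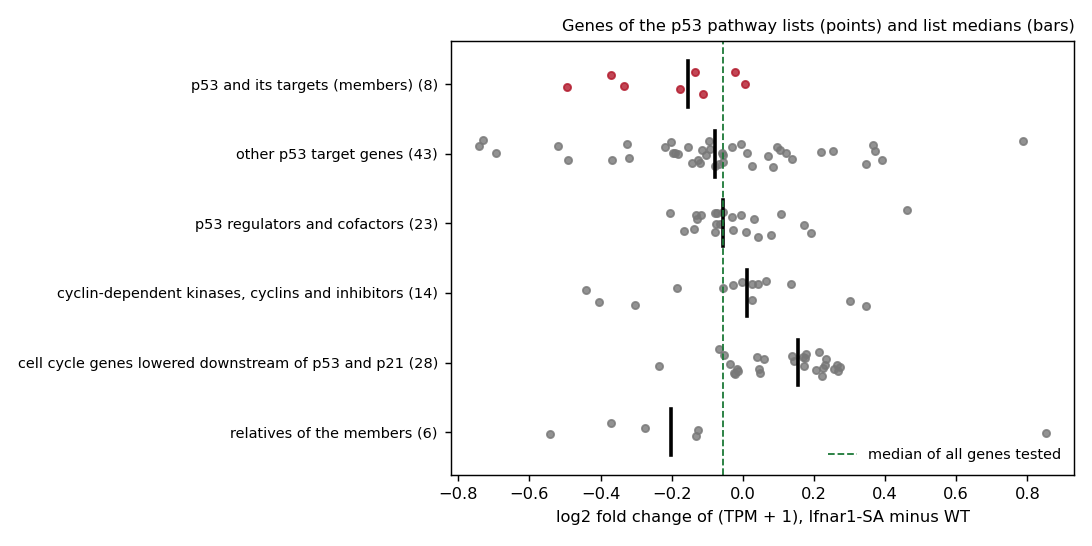
Log2 fold changes of TPM + 1, Ifnar1-SA minus WT, for each tested gene (points) of the members and of 5 related lists, with the number of genes in brackets, list medians as black bars and the median of all genes tested as a dashed line. The cell cycle genes have their median at 0.16 and the members at −0.16.

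Genes that act on p53 had a median close to that of all genes tested, apart from some settings. Of 26 regulators and cofactors, 23 had a mean of at least 1 TPM and 0 passed, with 8 higher and 15 lower by mean log2 value and a median of −0.06, as over all genes tested. Leaving out WT 2 gave 0.08 for the list and 0.0035 for all genes, leaving out Ifnar1-SA 3 gave 0.05 for the list and −0.0035 for all genes, and quantile scaling gave 0.05 for the list and 0.0015 for all genes. Daxx, a histone chaperone that also binds Mdm2 and is known as interferon-inducible, was at 25.5, 16.3 and 23.0 TPM in Ifnar1-SA, against 15.02, 15.7 and 14.8 TPM in WT, without overlap (log2 fold change 0.46, 95% interval 0.01 to 0.91, limma adjusted p = 0.9997). Trp53bp2, which encodes ASPP2, a p53 partner that favours death genes, was at 2.05, 1.30 and 1.43 TPM in Ifnar1-SA and 1.68, 2.42 and 1.85 TPM in WT. Mdm4, the relative of Mdm2 that masks p53, was at 6.99, 4.73 and 4.88 TPM in Ifnar1-SA and 5.23, 7.13 and 5.98 TPM in WT. Cdkn2a, whose ARF product blocks Mdm2, was between 0.295 and 0.626 TPM in all libraries.

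Cell cycle genes downstream of p21 had a median above 0, and 0 of them passed. Of 28 genes whose transcription is known to be lowered through p53, p21 and the DREAM complex, 20 were higher and 8 lower in Ifnar1-SA by mean log2 value, where 62.9% of all genes tested were lower. Their median was 0.16, and in limma 0 were at an unadjusted p under 0.05. Leaving out WT 3 gave a list median of −0.07, where that of all genes was −0.11, and leaving out Ifnar1-SA 1 gave −0.0075, where that of all genes was −0.15. Cdk1, the mitotic kinase, was at 75.2, 54.4 and 52.5 TPM in Ifnar1-SA and 66.1, 50.1 and 36.7 TPM in WT. E2f1, an S-phase transcription factor, was at 6.76, 5.97 and 5.58 TPM in Ifnar1-SA, against 5.46, 5.17 and 5.15 TPM in WT, without overlap (log2 fold change 0.18, 95% interval −0.14 to 0.50, limma adjusted p = 0.9997).

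The kinases, cyclins and inhibitors that p21 works with or beside gave 0 calls among 14 genes tested, with 7 higher and 7 lower by mean log2 value and a median of 0.01. That median was −0.12 without Ifnar1-SA 1, where that of all genes was −0.15, and −0.04 without WT 3, where that of all genes was −0.11. Cdkn1b, which encodes the related inhibitor p27, was at 1.88, 3.52 and 2.71 TPM in Ifnar1-SA and 2.95, 4.31 and 4.75 TPM in WT. Rb1, the retinoblastoma gene, was at 1.92, 2.06 and 1.80 TPM in Ifnar1-SA and 2.03, 3.50 and 2.44 TPM in WT. Among relatives of the members, 6 of 11 were tested, 0 passed, 1 was higher and 5 were lower, with a median of −0.20 that ranged from −0.31 without WT 1 to −0.09 without Ifnar1-SA 2, where those of all genes were −0.07 and −0.02. Ccng2, which encodes cyclin G2, was at 36.3, 31.0 and 30.0 TPM in Ifnar1-SA and 33.4, 63.0 and 50.8 TPM in WT. Phlda1, a relative of Phlda3, was at 16.9, 32.8 and 24.8 TPM in Ifnar1-SA and 25.5, 9.09 and 8.95 TPM in WT. In both genes WT 1 lay within the range of the Ifnar1-SA libraries, and WT 2 and WT 3 outside it.

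For the libraries as a whole, Ifnar1 was at 21.8 to 28.0 TPM in Ifnar1-SA and 24.0 to 41.9 TPM in WT, and an amino acid change leaves no mark in such values, so they do not check the labels. Cd4 was at 110 to 124 TPM in Ifnar1-SA and 108 to 112 TPM in WT, and Foxp3, the transcription factor that defines Treg cells, was at only 0.746 to 1.82 TPM in Ifnar1-SA and 0.276 to 0.697 TPM in WT. The Treg name therefore follows the labels. The 8 T cell markers summed to 3181 to 3604 TPM in Ifnar1-SA and 2921 to 3259 TPM in WT, and the 8 Treg markers to 4036 to 4815 TPM in Ifnar1-SA and 3819 to 4389 TPM in WT. Most of the Treg sum was Tnfrsf18, at 2400 to 3204 TPM in Ifnar1-SA and 2371 to 3238 TPM in WT, while Ikzf2 and Lrrc32 were at most 2.73 TPM. Ctla4 (762 to 876 TPM in Ifnar1-SA, 482 to 698 TPM in WT), Il10 (256 to 344 TPM in Ifnar1-SA, 135 to 222 TPM in WT) and Tigit (106 to 130 TPM in Ifnar1-SA, 77.6 to 98.3 TPM in WT) did not overlap. These and Foxp3 were higher in every Ifnar1-SA library than in every WT library, as were 1.7% of the symbols above 0 in any library. Il2ra overlapped, at 422 to 444 TPM in Ifnar1-SA and 359 to 428 TPM in WT, and so did Tnfrsf18, Ikzf2 and Lrrc32. Summed markers of B cells (5 genes) were at most 9.17 TPM in Ifnar1-SA and 11.4 TPM in WT, and those of monocytes, macrophages and dendritic cells (9 genes) at most 6.59 TPM in Ifnar1-SA and 8.92 TPM in WT. The 6 neutrophil and mast cell markers summed to 17.2 to 22.6 TPM in Ifnar1-SA and 7.33 to 10.6 TPM in WT, mostly from Ly6g. S100a9 overlapped, at 0.891 to 2.11 TPM in Ifnar1-SA and 0.615 to 2.87 TPM in WT, and S100a8, Elane, Cpa3 and Mcpt4 were below 1 TPM. The part of these markers in the results was not tested. Erythroid and platelet markers (5 genes) were at most 1.59 TPM in Ifnar1-SA and 1.66 TPM in WT, and stromal and endothelial markers (4 genes) at most 3.54 TPM in Ifnar1-SA and 4.99 TPM in WT. In such bulk samples, fewer cells of a type and less RNA per cell cannot be told apart.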

How the data were processed

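The 6 libraries, 3 Ifnar1-SA and 3 WT, were of messenger RNA from mouse cells labelled as Treg cells. They were quantified by the authors with Salmon on mm10/GRCm38, per the submitters' processing notes, and deposited as 1 table of gene-level TPM. For the Salmon version, annotation and read filters, nothing is given in the sources used here. TPM sums to 1e+06 per library, so the depth is unknown and no counting interval can be given. A gene with a large share lowers all others.

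Values were tested as log2(TPM + 1), a scale that understates changes of low genes, for the 12141 genes whose mean over the libraries reached 1 TPM. The test was limma with an intensity trend, two-sided, Ifnar1-SA minus WT, Benjamini-Hochberg adjusted over all genes tested, threshold 0.05. Eda2r was tested by exact permutation. Folds are differences of mean log2 values and errors are SD over 3 libraries.

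The members, lists and alternatives were chosen with earlier results of these data known. The rule for named genes took all 9 members, up to 4 called genes per list or otherwise the 2 of smallest p, and the 5 genes most like Cdkn1a and Trp53, without predicted gene models. Trp53cor1, Eda, Mdm4, Cdkn2a, Gdf15, Bax, Pmaip1, Gadd45a, Plk2, Trp53i11, Rps27l, Aen, Pcna, Nkg7, Ly6g and the marker genes named were added after their values were seen. Cop1 was matched as Rfwd2. Positions are from GENCODE M21 and promoters from RefSeq, GRCm38.p6.

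The statistics were run in R 4.3.3 with limma 3.58.1, and tables and plots in matplotlib 3.10.9, scipy 1.17.1, numpy 2.4.6, pandas 2.3.3 and Python 3.11.15. The fit was also tested on simulated data.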

Additional observations from a re-analysis of the deposited data

How the results depend on the processing

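Under all 14 alternatives 0 of the members fitted passed an adjusted p of 0.05. Eda2r was fitted only with no filter on low values, and Trp53inp1 and Zmat3 were not fitted with a mean TPM of at least 5. Cdkn1a, Mdm2, Ccng1, Sesn2 and Trp53inp1 kept a lower mean in Ifnar1-SA in every setting that fitted them. The log2 fold change of Cdkn1a ranged from −0.50 to −0.28 and that of Mdm2 from −0.44 to −0.25. Members at an unadjusted p under 0.05 numbered 3 without WT 1, where all genes numbered 850 of 12141, and 1 (Eda2r) with no filter, where all genes numbered 658 of 23897, and 0 in the other 12 alternatives.

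Signs turned in some settings for Trp53, Phlda3 and Zmat3 only. Trp53 ranged from −0.12 to 0.13 when single libraries were left out and was −0.13 without WT 2 and Ifnar1-SA 1 together. Phlda3 ranged from −0.32 to 0.0557 and Zmat3 from −0.13 to 0.0840 when single libraries were left out. Zmat3 was 0.0298 with median-of-ratios scaling, 0.0496 with quantile scaling and 0.0206 without WT 2 and Ifnar1-SA 1.

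The count of members without overlap, 3, was 3 to 5 when single libraries were left out and 1 (Eda2r) with median-of-ratios scaling, where the cause was not tested. Of all symbols, 4.13% were lower without overlap in the 6 libraries, 19.5% without WT 1 (5 members), 18% without Ifnar1-SA 1 (4 members), 5.26% to 7.52% without any other single library (3 members each) and 4.63% with median-of-ratios scaling, so the counts of 4 and 5 came with a higher background. The count of all genes past the threshold, 7, was 15 with a pseudocount of 0.1, 1 with a mean TPM of at least 5, 20 without WT 2 and Ifnar1-SA 1, and 14 to 28 when single libraries were left out. With a replicate block it was 0 in limma, with 399 genes at an unadjusted p under 0.05, and 0 members passed. The labels do not say what libraries of the same number share. Same-numbered deviations from the genotype means correlated at −0.11, −0.11 and 0.15 across genes for numbers 1, 2 and 3. Those of unlike numbers correlated at −0.17 to 0.25, so these values do not settle it. Depth is unknown from TPM, which limits what the low Eda2r values can show.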
